A study of Mus musculus with 178 samples.

Results

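The 10 genes described here, Ccr2, Ly6c2, Vcan, Ms4a4a, Ms4a6d, Mefv, Myof, F13a1, Klra2 and Trps1, are genes of classical (inflammatory, Ly6C-high) blood monocytes, and all 10 were found by symbol among the 55450 genes of the count table. They were chosen for being higher on Day 9 than on Day 4, so the change between those days, and any other change over time that starts from either of them, is given below as a description, and no count of calls from such a change is used as support. RNA was sequenced from whole blood of C57BL/6J mice of both sexes that carried orthotopic tumors of 4MOSC1 cells, a mouse line of oral squamous carcinoma that was raised with a carcinogen, placed in the tongue or the buccal mucosa. Every mouse was given an antibody against PD-1, so no untreated group stands beside them, and Day 4, counted from the injection of the tumor cells, is the sample taken before treatment. Of the 45 mice, 15 were responders and 30 non-responders by the change in tumor size. The 178 libraries analysed were 15, 15, 14 and 15 of responders and 29, 30, 30 and 30 of non-responders on Days 4, 9, 17 and 24.

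Total counts per library ran from 2.61e+07 to 8.22e+07, of which haemoglobin genes took 68.7% to 88.0%, leaving 4.54e+06 to 2.22e+07 counts for all other genes. The lowest count of a member in any library was 8 and the highest 9115, and all 10 members passed the filter on low counts. The Day 24 library of non-responder 29 stands apart, with a TMM scaling factor of 0.0848. It holds 11 counts of Ms4a6d and 426 of F13a1, and it was the highest non-responder library of Day 24 for 9 of the 10 members. Counts of called members that use it, and of other genes between Day 17 and Day 24, are therefore also given without it where they differ. Some but not all values of single members are given without it too. The Day 17 library of non-responder 24 is labelled a responder while the other libraries of that mouse are labelled non-responder, and it was counted with the non-responders. Of the responders 11 carry 4-digit ear tags and 4 carry 3-digit tags, against 7 and 23 of the non-responders, so tag series and response are partly confounded. For the members, and not for other genes, values within each series are given beside the comparison of responders with non-responders on each day.

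Classical monocytes are made in the bone marrow and leave it for the blood through the chemokine receptor Ccr2, whose main ligands Ccl2 and Ccl7 are released by inflamed tissue and by tumors. In tissue they become macrophages and dendritic cells, and those that stay in the blood can turn into Ly6C-low, non-classical monocytes. Markers of the classical state include the surface protein encoded by Ly6c2, the matrix proteoglycan versican and coagulation factor XIII. In a sample of whole blood the level of such a gene follows both the number of monocytes and the RNA that each cell holds, and the data cannot tell fewer cells from less RNA per cell.

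Levels are given as log2 CPM after TMM scaling, which compare libraries for 1 gene: CPM is a count as a share of its library, and TMM corrects that share for composition. Only TPM, the share of transcripts after scaling for gene length, compares 1 gene with another. By mean TPM over all libraries Ly6c2 was the highest member at 13.2, followed by Ccr2 at 4.70 and F13a1 at 4.12 (by median 3.54 and 3.56). Ms4a4a at 1.55 and Klra2 at 1.52 came next and were nearly equal. Ms4a6d (0.740), Mefv (0.579), Vcan (0.383), Myof (0.364) and Trps1 (0.289) were below 1 TPM on average. By median over all libraries Vcan was the lowest member at 0.21, below Trps1 at 0.25 and Myof at 0.32. On Day 4 mean TPM was higher for F13a1 than for Ccr2, at 3.17 against 3.00 in responders and 4.26 against 3.72 in non-responders. The order by pooled mean thus does not hold on every day.

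**Figure D1:**
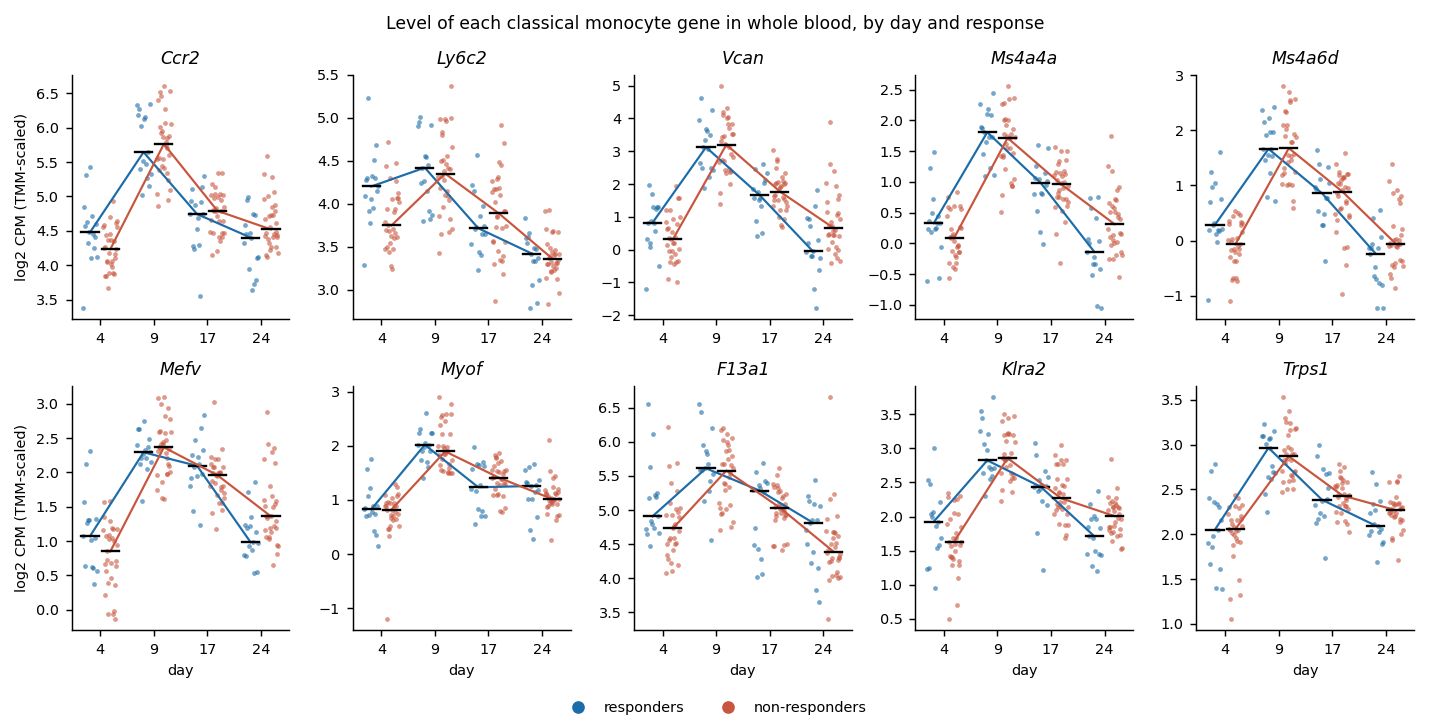
Level of each of the 10 genes in log2 CPM (y axis, TMM-scaled) on Days 4, 9, 17 and 24 (x axis, days evenly spaced), with 1 point per library, responders in blue, non-responders in red, and black bars joined by lines at the group medians. In both groups the mean was highest on Day 9 for all 10 genes, and the libraries of responders and non-responders overlap on every day.

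Ccr2 (chr9:124101950-124113557, plus strand, positions here and below from GENCODE M21 on GRCm38) encodes the receptor that draws classical monocytes out of the marrow. In responders its lowest, median and highest log2 CPM were 3.38, 4.48 and 5.43 on Day 4 and 5.02, 5.64 and 6.34 on Day 9. In non-responders they were 3.67, 4.24 and 4.93 on Day 4 and 4.86, 5.76 and 6.61 on Day 9. The highest Day 4 libraries thus reached into the range of Day 9 in each group, and every Day 9 library was above both Day 4 medians. Fitted with edgeR over all 4 days, the difference between Day 9 and Day 4 was 1.24 ± 0.17 (log2 fold change ± SE) in responders and 1.55 ± 0.10 in non-responders.

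Among the surface proteins, Ms4a4a (chr19:11375523-11392790, plus strand) and Ms4a6d (chr19:11586604-11604849, minus strand) lie in the same gene cluster and encode tetraspanning membrane proteins of myeloid cells. Ms4a6d had log2 CPM of -1.07, 0.29 and 1.61 (lowest, median, highest) in responders on Day 4 and 0.72, 1.66 and 2.43 on Day 9. In non-responders the same values were -1.09, -0.07 and 0.53 on Day 4 and 0.59, 1.67 and 2.81 on Day 9, so that every non-responder library of Day 9 was above every one of Day 4. The fitted difference of Ms4a6d was 1.27 ± 0.19 in responders and 1.87 ± 0.14 in non-responders. For Ms4a4a the medians went from 0.33 to 1.81 in responders and from 0.09 to 1.72 in non-responders, with fitted differences of 1.38 ± 0.18 and 1.57 ± 0.12. Klra2 (chr6:131219223-131247362, minus strand), a lectin-like receptor of the Ly49 family that is found on myeloid cells, had medians of 1.93 and 2.82 in responders and 1.63 and 2.86 in non-responders on Days 4 and 9.

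Ly6c2 (chr15:75108158-75111970, minus strand) encodes the GPI-anchored protein by which classical monocytes are usually sorted, and it was the member with the smallest difference between Day 4 and Day 9. Its lowest, median and highest log2 CPM in responders were 3.28, 4.20 and 5.23 on Day 4 and 3.79, 4.42 and 5.00 on Day 9. In non-responders they were 3.24, 3.75 and 4.72 on Day 4 and 3.43, 4.35 and 5.37 on Day 9. The ranges of the days overlapped over most of their width in both groups, and the fitted difference was 0.20 ± 0.14 in responders and 0.54 ± 0.11 in non-responders. The gene has a near-identical neighbour, Ly6c1 (chr15:75044018-75048830, minus strand). The deposited counts are estimates, of which 3.14% of values are not whole, and the counting program is not given in the sources used here. How reads were split between these copies is therefore uncertain. The coding sequences of the transcripts Ly6c2-201 and Ly6c1-201 are 393 bases long and identical at 384 of them. Most of the 9 differences fall early, 6 of them in the first 90 bases, which are shown 5′ to 3′ from the start codon with the differing bases in capitals.
Ly6c2: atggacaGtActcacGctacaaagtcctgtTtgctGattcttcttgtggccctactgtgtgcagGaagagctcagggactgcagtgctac
Ly6c1: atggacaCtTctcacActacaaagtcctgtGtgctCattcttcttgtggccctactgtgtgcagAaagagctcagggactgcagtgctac
The median log2 CPM of Ly6c1 was 0.36 on Day 4 and -0.46 on Day 9 in responders and 0.57 and -0.12 in non-responders. Ly6c1 was lower on Day 9 than on Day 4 in both groups, opposite to Ly6c2. Per length, its median TPM on Day 4 was 0.77 in responders and 1.55 in non-responders, where Ly6c2 had 9.69 and 13.82, subject to the uncertain split.

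Vcan (chr13:89655312-89742509, minus strand), the gene of versican, had the largest difference between Day 4 and Day 9 of the 10 members. In responders its log2 CPM was -1.19, 0.82 and 1.96 (lowest, median, highest) on Day 4 and 1.88, 3.12 and 4.62 on Day 9. In non-responders it was -0.98, 0.31 and 1.95 on Day 4 and 1.38, 3.20 and 5.00 on Day 9. The fitted difference was 2.46 ± 0.28 in responders and 2.82 ± 0.21 in non-responders, and Vcan ranked 95 of 12560 genes in responders and 36 of 13009 in non-responders by the size of this increase. F13a1 (chr13:36867178-37050244, minus strand), which encodes the catalytic chain of coagulation factor XIII, was among the most abundant members, and of the 10 only Ly6c2 differed less between Day 4 and Day 9. Its medians were 4.91 and 5.61 in responders and 4.73 and 5.58 in non-responders on Days 4 and 9, with fitted differences of 0.52 ± 0.19 and 0.69 ± 0.13. Platelets and megakaryocytes also express F13a1, and of the 8 platelet markers 0 were called higher and 1 lower on Day 9 in responders and 0 higher and 7 lower in non-responders, where 14.2% and 27.5% of all genes were called lower. Their part in the values of F13a1 was not tested.

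Mefv (chr16:3707218-3718097, minus strand) encodes pyrin, a sensor protein that starts an inflammasome. Its log2 CPM in responders was 0.38, 1.07 and 2.31 (lowest, median, highest) on Day 4 and 1.59, 2.29 and 2.74 on Day 9. In non-responders it was -0.13, 0.85 and 1.59 on Day 4 and 1.61, 2.36 and 3.10 on Day 9, again with no overlap between the days. Myof (chr19:37899036-38043577, minus strand) encodes myoferlin, a ferlin of membrane repair and fusion, and its median went from 0.83 to 2.02 in responders and from 0.82 to 1.90 in non-responders. Trps1 (chr15:50654752-50890463, minus strand), a GATA-type transcriptional repressor, had medians of 2.05 and 2.96 in responders and 2.06 and 2.87 in non-responders.

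Each member taken singly was higher on Day 9 than on Day 4 in most mice of both groups, by the smallest margin for Ly6c2 in responders. All 10 together were higher in most non-responders but in a minority of responders. Ccr2, Vcan, Ms4a6d, Mefv and Myof were higher in 15 of 15 responders and 29 of 29 non-responders with both libraries. Ms4a4a was higher in 15 and 28, Trps1 in 14 and 29, Klra2 in 14 and 28, F13a1 in 12 and 26, and Ly6c2 in 8 and 22. No mouse had fewer than 8 members higher, and all 10 were higher in 5 responders and 21 non-responders. The size of the difference varied widely between mice. For Vcan it ran from 0.51 in responder 5 to 5.14 in responder 13, with a median of 2.32, and from 0.18 in non-responder 1 to 4.69 in non-responder 10, with a median of 2.83. Responder 5 also had the smallest difference of its group for Ccr2, Ms4a4a, Ms4a6d, Mefv, Myof and Trps1, and non-responder 1 for Ccr2, Ms4a4a, Mefv, Klra2 and Trps1. Over all genes tested with edgeR, 13.5% were called higher on Day 9 in responders and 23.3% in non-responders (adjusted p no higher than 0.05), and by the same criterion 9 and 10 members were; nothing is read from these counts, since the members were chosen on this change. On the TPM scale, where haemoglobin transcripts share the total, a member was higher on Day 9 in 9 (Ly6c2) to 13 (Vcan) of 15 responders and in 20 (Ly6c2) to 28 (Vcan) of 29 non-responders.

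**Figure D2:**
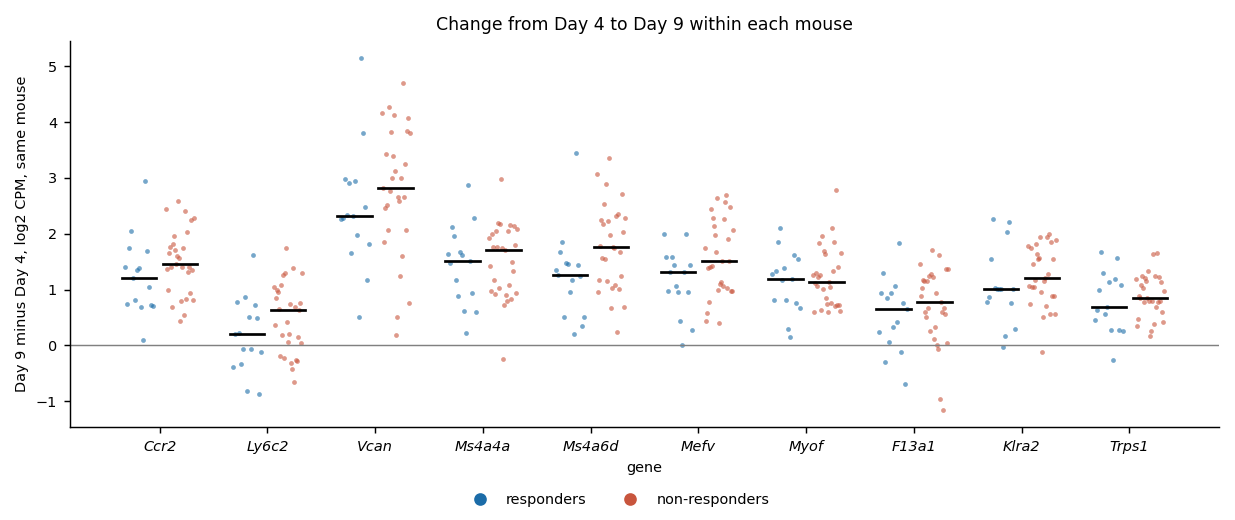
Difference between Day 9 and Day 4 in log2 CPM within each mouse (y axis) for the 10 genes (x axis), with 1 point per mouse, responders in blue, non-responders in red and black bars at the medians. Points below 0 are mice with a lower value on Day 9; they are most frequent for Ly6c2, with 7 of 15 responders and 7 of 29 non-responders.

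By Day 17 the members were lower than on Day 9 in most mice, and Ccr2 was in 14 of 14 responders and 30 of 30 non-responders. None of the 10 was higher on Day 17 than on Day 9 in 7 of 14 responders and 17 of 30 non-responders. The fitted difference between Day 17 and Day 9 was largest for Vcan, at -1.59 ± 0.28 in responders and -1.52 ± 0.19 in non-responders, followed by Ccr2 at -1.10 ± 0.17 and -1.04 ± 0.10. Mefv differed least in responders, at -0.18 ± 0.15, and its median there was 2.10 on Day 17 against 2.29 on Day 9. Of all genes tested, 3.68% in responders and 16.2% in non-responders were called lower on Day 17 than on Day 9. Day 17 levels of Vcan still lay between those of Days 4 and 9, with medians of 1.66 in responders and 1.77 in non-responders.

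The comparison of Day 24 with Day 17 uses neither of the days on which the members were chosen, and here 6 members fell in responders and 8 in non-responders (edgeR, adjusted p of at most 0.05 over all genes tested). Among all genes tested, 9.31% were called lower in responders and 11.3% in non-responders. No member was called higher in either group, against 9.59% and 9.86% of all genes. The median log2 fold change of the 10 members was -0.55 in responders and -0.43 in non-responders, where the median over all genes was -0.02 and 0.01.

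Mefv fell most clearly in responders. Its log2 CPM went from 1.23, 2.10 and 2.83 (lowest, median, highest) on Day 17 to 0.53, 0.98 and 1.87 on Day 24, and it was lower in 14 of 14 responders with both libraries (log2 fold change -1.02 ± 0.16, edgeR adjusted p = 3.12e-06). In non-responders it went from 1.17, 1.96 and 3.02 to 0.65, 1.36 and 2.88 and was lower in 24 of 30 mice (-0.41 ± 0.11, adjusted p = 0.005). Ms4a6d went from -0.38, 0.86 and 1.64 to -1.22, -0.24 and 0.55 in responders, where it was lower in 14 of 14 mice (-1.18 ± 0.20, adjusted p = 1.98e-05). Its values in non-responders were -0.96, 0.89 and 1.58 on Day 17 and -0.85, -0.06 and 1.40 on Day 24, lower in 25 of 30 mice (-0.73 ± 0.14, adjusted p = 8.96e-05). The libraries of the 2 days overlapped in both groups for each of these genes.

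Vcan fell by 1.39 on the log2 scale in responders (SE 0.29, edgeR adjusted p = 0.000409, lower in 12 of 14 mice), from a median of 1.66 to -0.06. In non-responders it fell by 0.80 (SE 0.21, adjusted p = 0.00288, lower in 26 of 30 mice), from 1.77 to 0.66. Ms4a4a fell by 1.00 in responders (SE 0.18, adjusted p = 6.86e-05) and by 0.58 in non-responders (SE 0.12, adjusted p = 0.000141). Klra2 fell by 0.67 (SE 0.16, adjusted p = 0.00191) and 0.37 (SE 0.09, adjusted p = 0.00207). Ly6c2 fell by 0.43 (SE 0.14, adjusted p = 0.0246) and 0.56 (SE 0.11, adjusted p = 6.04e-05), and its Day 24 medians of 3.42 and 3.36 were its lowest of the 4 days.

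The remaining members passed in 1 group or in neither. Myof (log2 fold change -0.37 ± 0.09, edgeR adjusted p = 0.00147) and F13a1 (-0.44 ± 0.13, adjusted p = 0.00774) fell in non-responders, whereas their values in responders, -0.13 ± 0.15 (adjusted p = 0.563) and -0.31 ± 0.20 (adjusted p = 0.285), did not pass. Of the 8 platelet markers, 6 were called lower in non-responders (8 without the library of non-responder 29) and 1 in responders, and their part in F13a1 was not tested here either. Ccr2 and Trps1 passed in neither group: Ccr2 had -0.33 ± 0.17 (adjusted p = 0.155) in responders and -0.13 ± 0.10 (adjusted p = 0.377) in non-responders. Whether these changes differ between responders and non-responders was not tested. Without the Day 24 library of non-responder 29 the same 8 members were called in non-responders, with Vcan at -0.88 and F13a1 at -0.60, and with the mouse as a replicate block 6 and 8 members were called as before. On log2(TPM + 0.1) with limma, 0 members were called in responders and 4 in non-responders (0.438% and 4.94% of all genes), 5 and 8 members had an unadjusted p under 0.05 (6.88% and 11.8% of all genes), and the fold changes kept their sign for all 10 in both groups.

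**Figure D3:**
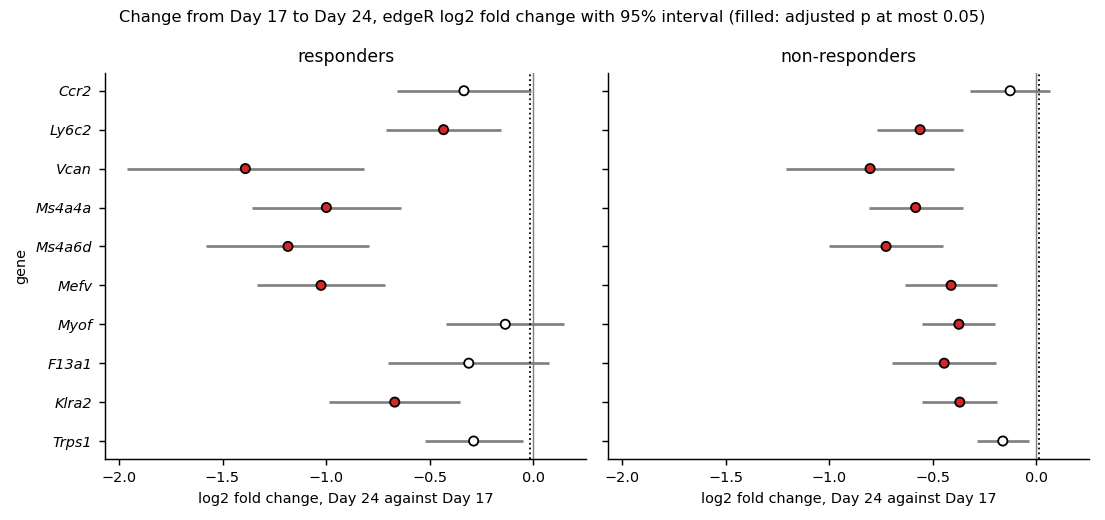
Fitted log2 fold change of Day 24 against Day 17 (x axis) for the 10 genes (y axis) in responders and non-responders, with 95% intervals; filled points passed an adjusted p of at most 0.05, and the dotted line is the median over all genes tested. All 10 estimates lie below 0 in both groups, and 6 and 8 of them are filled.

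The values of Day 24 against Day 4 are again a description, and their difference between the response groups was not tested. On Day 24 the fitted difference from Day 4 in responders ran from -0.87 ± 0.14 (Ly6c2) to 0.24 ± 0.14 (Myof), with 8 of 10 members below 0. In non-responders it ran from -0.49 ± 0.11 (Ly6c2) to 0.66 ± 0.12 (Mefv), with 2 members, Ly6c2 and F13a1, below 0. By the mean change within a mouse on log2 TPM, 7 and 8 of 10 members were below 0, but there the median over all genes was itself at 0.09 in responders and -0.34 in non-responders, and 8 and 2 of 10 members were below that median. On log2 CPM the median number of members higher on Day 24 than on Day 4 in a mouse was 2 of 10 in responders and 6 of 10 in non-responders. Without the library of non-responder 29 the value of F13a1 moved from -0.29 to -0.44 and that of Vcan from 0.50 to 0.41.

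The response groups were set against each other day by day to ask whether the level of these genes in blood goes with the response to treatment. A call needed a 1.5-fold difference or more and an edgeR adjusted p no higher than 0.05. The libraries of Days 4 and 9 are those on which the members were chosen, so the values of these days are a description and nothing is read from their counts of calls. On Day 4, before treatment, the fitted difference was above 0 for all 10 members (on log2 TPM it was below 0 for 9 of them), and 1, Ms4a6d, was called higher in responders, where 3.91% of all genes tested were (4.21% in either direction). The median log2 fold change of the members was 0.34, with -0.01 over all genes. Ms4a6d ranged from -1.07 to 1.61 around a median of 0.29 in responders and from -1.09 to 0.53 around -0.07 in non-responders, so the groups overlapped, and its log2 fold change was 0.59 ± 0.15, or 1.51-fold, just past the fold required. Without the filter on low counts it was 0.57, below that fold, and 0 members were called.

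Ly6c2 on Day 4 had medians of 4.20 in responders and 3.75 in non-responders and a log2 fold change of 0.39 ± 0.12, which is below the fold required. Ccr2 (0.32 ± 0.12) and Mefv (0.43 ± 0.16) had medians of 4.48 and 1.07 in responders against 4.24 and 0.85 in non-responders. Vcan, with the widest spread between mice, had 0.36 ± 0.24, an interval of -0.11 to 0.83. Myof (0.15 ± 0.12) and Trps1 (0.10 ± 0.11) were closest to 0.

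Within the ear tag series, Ms4a6d on Day 4 had a log2 fold change of 0.62 ± 0.26 among the mice with 4-digit tags and 0.65 ± 0.24 among those with 3-digit tags, beside the pooled 0.59, and it was called in neither. With the series as a covariate it was 0.65 ± 0.18. For Ly6c2 the values were 0.47 and 0.42 within the series. Ccr2 had 0.40 ± 0.21 among 4-digit tags and 0.02 ± 0.17 among 3-digit tags, and Myof and Trps1 were at -0.10 and -0.09 among 3-digit tags. On log2(TPM + 0.1) with limma the sign turned for 9 of the 10 members (Vcan remained above 0, at 0.03). There the median over all genes was itself at -0.63, and relative to that median all 10 members were above 0, from 0.11 (Ccr2) to 0.65 (Vcan). The median share of haemoglobin counts on Day 4 was 83.8% in responders and 79.4% in non-responders, and its part in these values was not tested.

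On Day 9 the fitted differences were small by edgeR. The median log2 fold change of the members was -0.02, close to that over all genes, and 0 members were called, against 3.65% of all genes; none had an unadjusted p under 0.05 with edgeR, as 25.1% of all genes had, and DESeq2 called 0 as well. Ccr2 had medians of 5.64 in responders and 5.76 in non-responders, and its log2 fold change of -0.01 ± 0.15 has an interval of -0.30 to 0.28. The interval of Vcan, -0.52 to 0.46, was the widest, and that of Trps1, -0.22 to 0.13, the narrowest. Within the ear tag series the values ran from -0.23 ± 0.29 (Vcan) to 0.04 ± 0.15 (F13a1) among 4-digit tags and from -0.30 ± 0.24 (Ly6c2) to 0.18 ± 0.27 (Ms4a4a) among 3-digit tags, and 0 members were called in either. With limma on log2(TPM + 0.1), where the median over all genes was -0.59, all 10 members were below 0 and 5 were called lower in responders, where 51.4% of all genes were called.

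On Day 17, 0 members were called and none had an unadjusted p under 0.05 by edgeR or DESeq2. Of all genes 0.264% were called by edgeR, and 20.6% (edgeR) and 20.8% (DESeq2) had an unadjusted p under 0.05. The values ran from -0.14 ± 0.14 (Ly6c2) to 0.21 ± 0.12 (Mefv, edgeR adjusted p = 0.305). Among 4-digit tags they ran from -0.01 ± 0.18 (F13a1) to 0.42 ± 0.19 (Ms4a4a), with 1 of 10 below 0, and among 3-digit tags from -0.41 ± 0.18 (F13a1) to 0.13 ± 0.16 (Mefv), with 9 of 10 below 0, and 0 members were called in either. Counting the library of non-responder 24 as a responder called 0 members too.

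On Day 24 the fitted values were below 0 for 8 of 10 members, with a median of -0.26 against -0.01 over all genes. On Day 4 all 10 were above 0. On log2 TPM 9 of 10 were below 0 on both days, but relative to the median over all genes on that scale all 10 were above it on Day 4 and 8 of 10 below it on Day 24. No member passed both thresholds with edgeR, where 0.104% of all genes were called lower in responders, and 0.297% in either direction, while 6 members had an unadjusted p under 0.05 (24.3% of all genes) and DESeq2 called 1, Vcan (0.425% of all genes). Vcan had log2 CPM of -1.78, -0.06 and 1.82 (lowest, median, highest) in responders and -0.40, 0.66 and 3.88 in non-responders (log2 fold change -0.70 ± 0.31, edgeR adjusted p = 0.141; DESeq2 -0.87, adjusted p = 0.0329). Mefv had 0.53, 0.98 and 1.87 in responders and 0.65, 1.36 and 2.88 in non-responders (-0.41 ± 0.15, edgeR adjusted p = 0.0809). Klra2 (-0.24 ± 0.09, adjusted p = 0.0833), Ms4a4a (-0.41 ± 0.16, adjusted p = 0.101), Ms4a6d (-0.40 ± 0.17, adjusted p = 0.138) and Ccr2 (-0.28 ± 0.12, adjusted p = 0.153) followed. Myof (0.14 ± 0.10) and F13a1 (0.13 ± 0.18) were the members above 0.

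The highest non-responder value of Vcan and Mefv on Day 24 is that of the doubtful library. Without it the log2 fold change was -0.61 for Vcan (edgeR adjusted p = 0.0997), -0.38 for Mefv (adjusted p = 0.0535), -0.22 for Klra2 (adjusted p = 0.0595) and -0.38 for Ms4a4a (adjusted p = 0.0688), and no member was called. Within the ear tag series Vcan had -0.77 ± 0.53 among 4-digit tags and -0.41 ± 0.47 among 3-digit tags. Mefv had -0.26 ± 0.23 and -0.29 ± 0.26, Ccr2 -0.29 ± 0.19 and -0.54 ± 0.20, and Klra2 -0.40 ± 0.14 and -0.22 ± 0.15. On this day 6 members, Ccr2, Vcan, Ms4a4a, Ms4a6d, Mefv and Klra2, thus had the same sign in both series, as did Trps1 at -0.07 and -0.17.

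**Figure D4:**
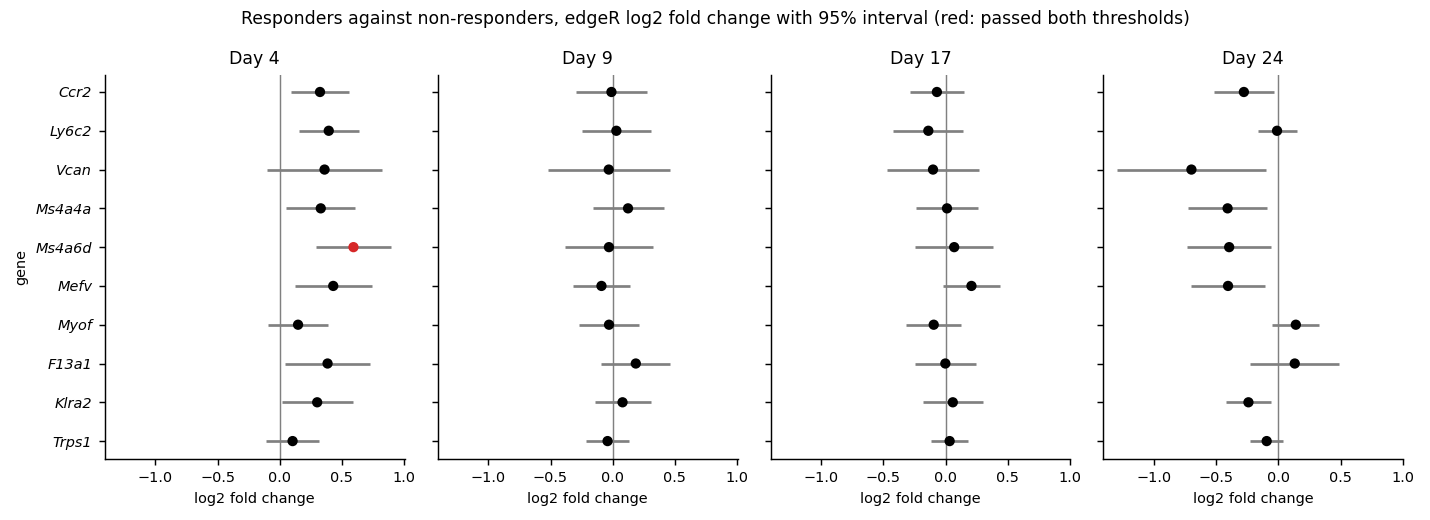
Fitted log2 fold change of responders against non-responders (x axis) with 95% intervals for the 10 genes (y axis) on Days 4, 9, 17 and 24; the red point passed both thresholds. All 10 estimates are above 0 on Day 4 (9 are below 0 on log2 TPM, and 0 are below the median over all genes there) and 8 of 10 are below 0 on Day 24, and Ms4a6d on Day 4 is the single red point.

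The increase from Day 4 to Day 9 was smaller in responders than in non-responders for all 10 members by the fitted interaction of response and day, from -0.14 ± 0.12 (Trps1) to -0.61 ± 0.24 (Ms4a6d). This is a description with no test, since it rests on the Day 4 and Day 9 libraries that the members were chosen on. Mefv had -0.52 ± 0.20, Ccr2 -0.33 ± 0.18 and Ly6c2 -0.35 ± 0.18. Within the ear tag series Mefv had -0.31 ± 0.30 and -0.42 ± 0.34, Ms4a6d -0.82 ± 0.35 and -0.73 ± 0.42, and Ly6c2 -0.54 ± 0.25 and -0.72 ± 0.31 among 4-digit and 3-digit tags, while Ms4a4a and Myof were above 0 among 3-digit tags. Over all genes, 0 of 13688 passed an adjusted p of 0.05 by edgeR or DESeq2, and 5.25% had an unadjusted p under 0.05 by edgeR.

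To see which members vary together from mouse to mouse, each library was taken as its deviation from the mean of its day and response group over the 89 libraries of Days 17 and 24. The 45 pairs of members had Pearson correlations from 0.10 (Ly6c2 with Trps1) to 0.81 (Ms4a4a with Ms4a6d), with a median of 0.49. Without the library of non-responder 29 the lowest was 0.039, of Ly6c2 with F13a1, and Ly6c2 with Trps1 was at 0.13. Points share the scaling of their library, and the correlations are given as a description. Ccr2 had the highest mean correlation with the other members, at 0.62, followed by Ms4a4a at 0.58, Vcan and Ms4a6d at 0.56 and Klra2 at 0.53. Ly6c2 and F13a1 at 0.35 and Trps1 at 0.34 were the least like the rest. Without the library of non-responder 29 the median was 0.48, and the mean correlation of F13a1 went to 0.28 that of Trps1 to 0.42 and that of Myof to 0.34, so that Myof took the place of Trps1 among the 3 lowest. Ly6c2, though named with Ccr2 as the marker of these cells, correlated with Ccr2 at 0.50 and with Vcan at 0.28.

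The genes outside the 10 whose deviations were most like the mean of the members over the same 89 libraries were Arhgef37 (r = 0.87), Mpeg1 (0.86), Igsf6 (0.85), Fam129a (0.84), Msr1 (0.84), Ifi207 (0.84), Naaa (0.83), Plbd1 (0.83), Tnfrsf21 (0.83) and Ugt1a7c (0.82). Mpeg1 encodes perforin-2, a pore-forming protein of phagocytes, and Msr1 a scavenger receptor of macrophages. Without the library of non-responder 29 all 10 stayed within the first 14 places, with r from 0.79 to 0.85.

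A further list of 24 classical monocyte genes, among them Csf1r, Cd14, Fn1 and Chil3, was followed beside the members. Fitted over time with edgeR, 17 were called higher and 1 lower on Day 9 than on Day 4 in responders (median log2 fold change 0.57, and 0.01 over all genes) and 21 higher and 0 lower in non-responders (0.95, and -0.01). Fn1, the gene of fibronectin, had 0.99 ± 0.18 and 1.49 ± 0.13, and Sirpa, an inhibitory receptor of myeloid cells, 0.74 ± 0.13 and 0.86 ± 0.07. From Day 17 to Day 24, 12 were called lower and 1 higher in responders and 15 lower and 1 higher in non-responders (17 and 1 without the library of non-responder 29). Clec4a3 (-0.91 ± 0.14, adjusted p = 4.20e-06), S100a4 (-0.82 ± 0.15, adjusted p = 4.30e-05) and Ccr1 (-0.83 ± 0.16, adjusted p = 0.000193) fell in responders. Beside this list and those below stand the shares of all genes called. From Day 4 to Day 9 they were 13.5% higher and 14.2% lower in responders, and 23.3% and 27.5% in non-responders. From Day 17 to Day 24 they were 9.59% higher and 9.31% lower in responders, and 9.86% and 11.3% in non-responders.

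On Day 4 the same list had 2 genes called higher in responders, Gda (1.13 ± 0.25, edgeR adjusted p = 0.00314) and Cd36 (0.78 ± 0.19, adjusted p = 0.00581), and both were also called on Day 9 (0.78 ± 0.15 and 0.73 ± 0.13). Red cell genes were higher in responders on those days, with 4 of 7 genes tested called on Day 4 and 7 of 7 on Day 9 (3.91% and 3.63% of all genes). Their part in the values of Gda and Cd36 was not tested. No values within the ear tag series are given for Gda, Cd36 or the red cell genes.

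Genes that act with the members were followed by list. Of the 13 genes of the pyrin inflammasome list, 6 in responders and 10 in non-responders were called higher on Day 9 than on Day 4. In non-responders 1 was called lower. Of all genes, 13.5% and 23.3% were called higher. Among the genes called higher were Nlrp3 (0.82 ± 0.15 and 1.04 ± 0.10) and Il1b (0.67 ± 0.19 and 1.37 ± 0.13). Nlrp3 and the adaptor gene Pycard fell from Day 17 to Day 24 in both groups (Nlrp3 -0.63 ± 0.15 and -0.31 ± 0.10, and -0.32 in non-responders without non-responder 29). Only 2 of the 7 genes of Ccr2 ligands and scavengers passed the filter on low counts, and none of them was called from Day 4 to Day 9. Of the versican partners 3 of 10 were tested, and Tlr2, a receptor of versican, was called higher on Day 9 in both groups (0.58 ± 0.13 and 0.97 ± 0.09). For monocyte development, 9 of 12 regulators tested were called higher on Day 9 in responders and 11 of 12 in non-responders, where 13.5% and 23.3% of all genes were. Csf2rb, the shared chain of the GM-CSF receptor, was at 0.74 ± 0.12 and 1.04 ± 0.09. Cebpb, a transcription factor of myeloid cells, fell by 2.35 (SE 0.28, edgeR adjusted p = 5.08e-08) in responders and by 1.00 (SE 0.20, adjusted p = 0.000146) in non-responders from Day 17 to Day 24, and by 1.00 without non-responder 29.

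Other genes of the families of 3 members were followed too. In the Ms4a cluster Ms4a6c (0.73 ± 0.15 and 1.11 ± 0.10) was called higher on Day 9 in both groups and the B cell gene Ms4a1 lower (-0.50 ± 0.09 and -0.42 ± 0.05). In the Ly6 cluster Ly6a was called higher (0.48 ± 0.16 and 0.58 ± 0.10) and Ly6c1 lower (-0.72 ± 0.14 and -0.69 ± 0.09). Of the Ly49 cluster around Klra2, 1 of 8 genes tested was called higher on Day 9 in responders and 2 of 8 in non-responders, near the 13.5% and 23.3% of all genes.

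Markers of other blood cells moved over the same days, and their part in the levels of the members was not tested. The summed CPM of the 14 neutrophil markers had a median of 289 (range 182 to 542) on Day 4 and 461 (256 to 584) on Day 9 in responders and of 235 (132 to 349) and 418 (232 to 720) in non-responders. For the 8 T cell markers the medians were 171 (148 to 217) and 128 (93.4 to 154) in responders and 175 (141 to 239) and 129 (101 to 148) in non-responders, and all 8 were called lower on Day 9 in both groups. B cell markers went from 555 (475 to 726) to 443 (366 to 509) and from 603 (501 to 787) to 476 (377 to 575). The 12 interferon-induced genes went from 1004 (394 to 3161) to 1746 (721 to 2755) in responders and from 490 (271 to 1113) to 871 (448 to 1855) in non-responders. On Day 9, 4 of them were called higher and 1 lower in responders and 10 higher and 1 lower in non-responders. The summed CPM of the 14 non-classical monocyte genes, of which Cd9 is the most abundant, had medians of 295 and 278 in responders and 259 and 253 in non-responders, but gene by gene 2 were called higher and 1 lower on Day 9 in responders and 10 higher and 1 lower in non-responders (median log2 fold change 0.28 and 0.36). The 10 members had 91.6 (57.7 to 151) and 152 (104 to 260) in responders and 73.4 (54.6 to 111) and 160 (98.7 to 267) in non-responders. Only in 1 group and day was a neutrophil marker without counts, 1 gene in responders on Day 4, and none of the T or B cell markers was. Between Day 17 and Day 24 neutrophil markers had medians of 387 and 243 in responders, and 8 of 12 tested were called lower and 1 higher in responders and 6 of 12 lower in non-responders (7 without the library of non-responder 29). Non-classical monocyte genes were called lower in 8 of 14 and 11 of 14 (11 without it), NK cell markers in 4 of 7 and 4 of 7 (4 without it) and interferon-induced genes in 7 of 12 and 10 of 12, with 1 higher in non-responders (11 lower and 0 higher without it). B cell markers were called higher in 6 of 8 and 3 of 8 (4 without it), and T cell markers in 0 of 8, with 1 lower, and 2 of 8 (2 without it). Their part in the values of the members was not tested.

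**Figure D5:**
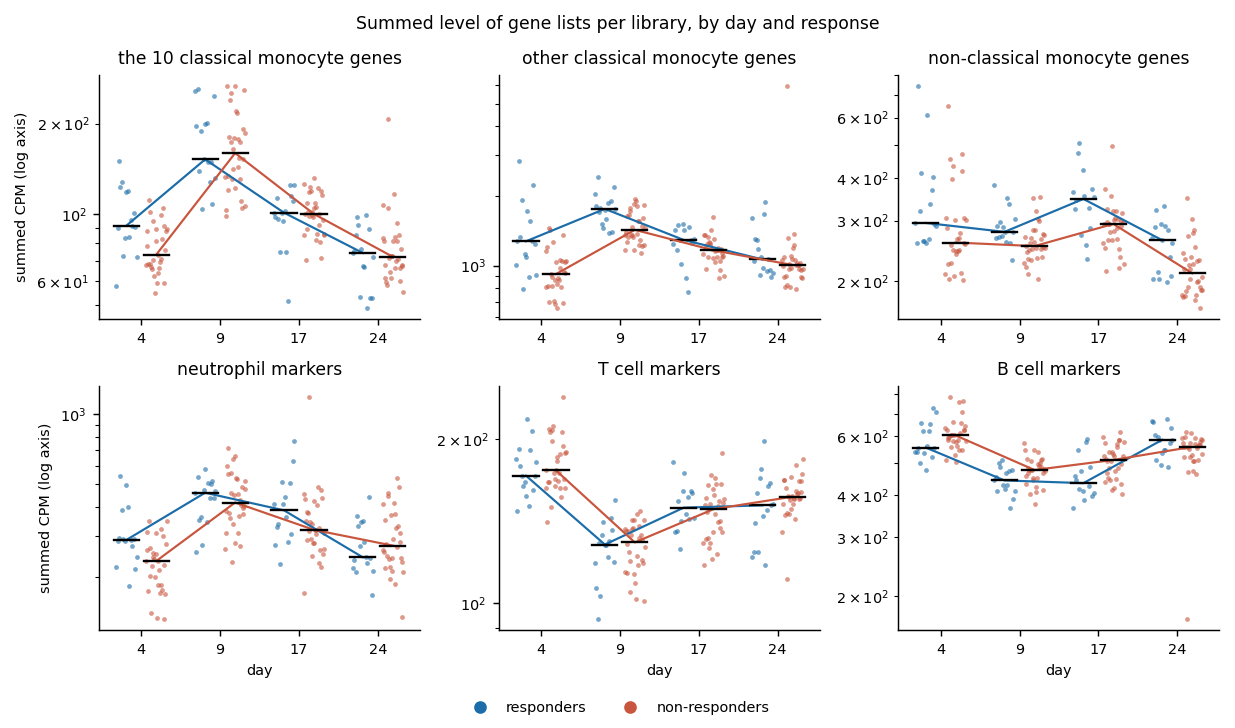
Summed CPM of the genes of 6 lists per library (y axis, log scale) on Days 4, 9, 17 and 24 (x axis, days evenly spaced), with 1 point per library, responders in blue, non-responders in red and black bars joined by lines at the medians. The 10 monocyte genes and the neutrophil markers have their highest medians on Day 9, where the T cell markers have their lowest; the single high point of other classical monocyte genes on Day 24 is non-responder 29, at 5975, which also has the lowest B cell sum, at 171.

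Promoters were searched for letters that the rule did not use, in the 250 bases before the start of each gene (RefSeq, GRCm38.p6), on both strands. Of the 10 members 8 matched an entry; Ms4a6d and Trps1 did not. Ly6c2 and F13a1 have 2 listed starts each, so the 8 genes have 10 windows. The PU.1 box GAGGAAG was found in 2 of the 8 genes, Ly6c2 and F13a1, or 3 of the 10 windows, of which the 2 of Ly6c2 overlap and hold the same site, and in 10.6% of the 32851 promoter windows. The C/EBP box TTGCNNAA was found in 1 of the 10, that of Klra2, and in 9.56% of all windows. An interferon response box (2.98% of all windows) and an AP-1 box TGANTCA (6.75%) were found in 0 of the 10. The second window of Ly6c2 holds a further GAGGAAG, 8 to 2 bases before its start, which is not shown, and the second of F13a1 holds none. The last 150 bases before the first listed start of these 3 genes, which carry the matches, are shown 5′ to 3′ along the gene with the match in capitals; all 3 genes are on the minus strand. The regions are chr15:75111972-75112121 for Ly6c2, chr13:37050245-37050394 for F13a1 and chr6:131247363-131247512 for Klra2, where the match is on the opposite strand.
Ly6c2: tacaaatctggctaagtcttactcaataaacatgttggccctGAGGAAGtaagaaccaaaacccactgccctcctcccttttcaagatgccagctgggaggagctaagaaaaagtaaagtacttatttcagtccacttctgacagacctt
F13a1: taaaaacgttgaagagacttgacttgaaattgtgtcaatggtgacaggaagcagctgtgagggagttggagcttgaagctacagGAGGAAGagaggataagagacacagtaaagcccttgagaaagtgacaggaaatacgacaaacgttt
Klra2: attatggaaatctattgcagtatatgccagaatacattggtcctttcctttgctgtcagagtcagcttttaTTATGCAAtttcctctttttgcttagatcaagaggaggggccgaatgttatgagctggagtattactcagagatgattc
A match is a description of these letters and not of a bound site. Ly6c2 and F13a1, which share the PU.1 box, correlated at 0.11 over the libraries of Days 17 and 24 (0.039 once that of non-responder 29 is left out).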

How the data were processed

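Whole blood RNA was sequenced from polyadenylated transcripts. The submitters' processing notes name STAR and the mm10 build; the counting program and annotation are not given in the sources used here. The authors deposited estimated counts per gene, of which 3.14% of values are not whole, and TPM values, which the authors scaled for gene length and library. All 55450 gene identifiers matched GENCODE M21, and 0 libraries were identical.

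Counts were rounded, scaled by TMM and tested with edgeR 4.0.16 (quasi-likelihood, Benjamini-Hochberg adjustment over all genes tested) in R 4.3.3, after edgeR's filterByExpr removed genes with low counts. Log2 CPM used a prior count of 1. Responders were compared with non-responders on each day within that day's libraries (adjusted p at most 0.05 and fold change at least 1.5), and days were compared within a response group fitted over its 4 days (adjusted p at most 0.05). The comparisons of the groups on Days 4 and 9 and in the change between them, planned as tests, are given for the members as a description, since the members were chosen on those days. Intervals are 95% intervals from the standard error. Alternatives were DESeq2 1.42.0, limma 3.58.1 on log2(TPM + 0.1), RLE scaling, no filter, removal of haemoglobin genes, each ear tag series alone or as a covariate, other assignments of the doubtful libraries and the mouse as a block. The fits were tested on simulated data.

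The members and lists were chosen with earlier results of these data known. Named genes were the members, of each list and direction the called genes with the lowest p, at most 3, and the 10 genes most like the members. The correlations, the lists and the change from Day 4 to Day 24 without non-responder 29, and that change on log2 TPM, were added after seeing the data. Ear tags pair the libraries of a mouse; the deviations of the same mouse on 2 days correlated on average between -0.053 and 0.094. Some genes of the lists are counted but not reported by name here.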

Additional observations from a re-analysis of the deposited data

How the results depend on the processing

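Of 650 member values recomputed under an alternative, 579 kept their direction and side of the threshold, 5 kept their direction and passed where they had not, 13 kept it and no longer passed, and 53 turned direction; of the 53, all but Ms4a6d on Day 4 had not been called, and on log2 TPM Ms4a6d also lost its call while Ly6c2 and Klra2 on Day 9 also passed. The cause was not tested. With the mouse as a replicate block the counts of called members were 6 and 8 for Day 24 against Day 17 in responders and non-responders and 0 for the difference in the increase, so the pairing changed no count. On log2(TPM + 0.1) with limma, 0 members were called on Day 4, 5 on Day 9, and 0 and 4 for Day 24 against Day 17. Of all genes, 7141 of 12602 tested were called there on Day 4 and 51.4% on Day 9. For Day 24 against Day 17 the shares of all genes were 0.438% and 4.94%. On Day 4 the count was also 0 without a filter and within either ear tag series, where fewer mice were fitted, and 2 by adjusted p alone; on Day 24 DESeq2 called 1.

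On the TPM scale the log2 fold change of responders against non-responders turned on Day 4 for Ccr2 (-0.52), Ly6c2 (-0.46), Ms4a4a (-0.49), Ms4a6d (-0.21), Mefv (-0.28), Myof (-0.44), F13a1 (-0.45), Klra2 (-0.49) and Trps1 (-0.45), on Day 9 for Ly6c2 (-0.70), Ms4a4a (-0.57), F13a1 (-0.54) and Klra2 (-0.63), on Day 17 for Ms4a4a (-0.20), Ms4a6d (-0.096), Klra2 (-0.12) and Trps1 (-0.098), and on Day 24 for Myof (-0.046). The median over all genes on that scale was -0.63, -0.59, -0.12 and -0.11 on Days 4, 9, 17 and 24.

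Among mice with 3-digit tags it turned for Myof (-0.10) and Trps1 (-0.093) on Day 4, Ly6c2 (-0.30), F13a1 (-0.18) and Klra2 (-0.14) on Day 9, Ms4a4a (-0.27), Ms4a6d (-0.22), Klra2 (-0.15) and Trps1 (-0.22) on Day 17 and Myof (-0.20) on Day 24, and the difference in the increase turned for Ms4a4a (0.075) and Myof (0.097). Among mice with 4-digit tags it turned for Ly6c2 (-0.049), Ms4a4a (-0.080) and Klra2 (-0.0033) on Day 9, Ccr2 (0.095), Ly6c2 (0.048), Vcan (0.090) and Myof (0.044) on Day 17 and Ly6c2 (0.061) and F13a1 (-0.33) on Day 24. With the series as a covariate it turned for Trps1 (-0.024) on Day 4, Ly6c2 (-0.16), F13a1 (-0.055) and Klra2 (-0.061) on Day 9, Ly6c2 (0.027), Myof (0.0078) and Trps1 (-0.090) on Day 17 and Myof (-0.086) and F13a1 (-0.074) on Day 24. On Day 17 Ms4a4a was -0.0024 without a filter, F13a1 0.00040 without haemoglobin genes, and Ms4a4a (-0.031) and Ms4a6d (-0.0087) turned with non-responder 24 as a responder. Without non-responder 29, Ly6c2 on Day 24 was 0.0076.

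Low members rest on few counts, 8 at the lowest for Vcan and Ms4a6d, and the haemoglobin share limits the depth left for them.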

Other observations

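Between Day 17 and Day 24, 3 of 7 eosinophil and basophil markers tested in responders and 3 of 6 in non-responders were called higher and 0 lower, where 9.59% and 9.86% of all genes were called higher. From Day 9 to Day 17, 3 of 7 were called lower and 1 higher in responders and 6 of 6 lower in non-responders (3.68% and 16.2% of all genes lower). Their summed CPM had medians of 9.99, 9.54, 5.68 and 14.3 in responders on Days 4, 9, 17 and 24. In non-responders the medians were 10.0, 9.30, 4.99 and 8.88. Ccr3, the eotaxin receptor, rose by 1.78 ± 0.32 (log2 fold change ± SE, edgeR adjusted p = 3.97e-05) in responders and by 1.41 ± 0.19 (adjusted p = 3.13e-08) in non-responders, and Siglecf by 1.03 ± 0.23 (adjusted p = 0.00101) and 0.68 ± 0.15 (adjusted p = 0.000843). Without non-responder 29 the values in non-responders were 1.41 for Ccr3 and 0.68 for Siglecf. Gngt2, a gene of non-classical monocytes, fell by 0.87 and 0.39 (0.41 without non-responder 29).

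On Day 4 the interferon-induced genes Rsad2 (1.24 ± 0.27, edgeR adjusted p = 0.003) and Isg15 (1.03 ± 0.23, adjusted p = 0.00348) were higher in responders, 2 of the 5 genes called of the 12 on that list, where 3.91% of all genes were called higher. Ackr1, the chemokine-binding receptor of red cells, was higher too (1.17 ± 0.25, adjusted p = 0.00314). The red cell genes described above were higher on the same day, and their part in these values was not tested. No values within the ear tag series are given for Rsad2, Isg15 and Ackr1.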
